A study of Homo sapiens with 30 samples.

Results

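CEBPA encodes C/EBPα, and the comparison described here is its knockdown in T47D cells that had also received progestin. T47D is a human breast cancer line of luminal type with abundant progesterone receptor. The comparison is made of 4 of the 30 samples of the series, chosen by their titles. They are 2 RNA-seq libraries of cells given a small interfering RNA against CEBPA (siCEBPA) and 2 of cells given a control RNA (siControl). All 4 are of cells at passages 18 to 20 that spent 4 hours in 10% charcoal-treated serum, the short arrest, and then received the synthetic progestin R5020 at 10 nM. They share the time label T360, which carries no unit. A further 4 libraries, 2 siControl and 2 siCEBPA without hormone and with the label T0, served to ask where the knockdown effect differed with progestin. Hormone and time label change together, so they cannot be told apart in that question. The siRNA sequences are not given in the sources used here. The labels do not say whether the libraries of a group came from separate cultures, so the p-values reflect how much these libraries vary, and that variation may be only technical.

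C/EBPα is a leucine-zipper transcription factor. It binds DNA as a dimer with itself or with other members of its family, and family members also pair with the stress factor ATF4 on composite C/EBP-ATF elements. In liver, fat and myeloid cells it switches on differentiation genes, many of them for secreted and metabolic proteins, and it can hold back proliferation. Tribbles proteins bind it and mark it for degradation.

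Reads per gene were counted in pairs, with totals of 62666783 to 70704799 in the 4 progestin libraries. Levels are given as CPM, the reads of a gene relative to the scaled total of its library. Changes are log2 ratios of siCEBPA to siControl with their standard error (SE), and a gene is called higher or lower at an adjusted p under 0.05 in edgeR's quasi-likelihood test. Luminal markers were abundant in every library, KRT8 at 1661 to 2583 CPM, KRT19 at 2849 to 4373 CPM and GATA3 at 307 to 329 CPM. Of 5 basal and myoepithelial markers KRT5, KRT14, KRT17 and TP63 did not exceed 2.10 CPM, and ACTA2 was at 7.24 to 9.50 CPM. Of 10 fibroblast, endothelial and blood cell genes tested 1 was higher, LUM, and the summed level of that list was 57.6 and 58.0 CPM in siControl and 61.9 and 70.4 CPM in siCEBPA, most of it from COL1A1.

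CEBPA itself, on chromosome 19 at 33299934 to 33302564 on the minus strand of hg38, was at 204 and 202 CPM in the siControl libraries and at 57.6 and 61.9 CPM in the siCEBPA libraries. The groups did not overlap, and the change was −1.76 ± 0.06 (SE, n = 2 and 2, adjusted p = 7.52e-11), a fall of 3.40-fold. Without hormone the same siRNA took CEBPA from 47.5 and 54.2 CPM to 10.7 and 12.1 CPM, a change of −2.16 ± 0.07 (adjusted p = 2.75e-11). The level left in the siCEBPA libraries with progestin was close to that of untreated siControl cells. The log2 fall was smaller with progestin, by 0.40 ± 0.10 (adjusted p = 0.0209), a difference that missed the threshold in 5 of the 8 fits that each left out 1 library, as without siControl progestin replicate 1 (0.40, adjusted p = 0.0992) or siCEBPA untreated replicate 1 (0.31, adjusted p = 0.115). In these cell populations, fewer cells with a transcript and less transcript per cell cannot be told apart, for CEBPA or for any gene below.

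**Figure D1:**
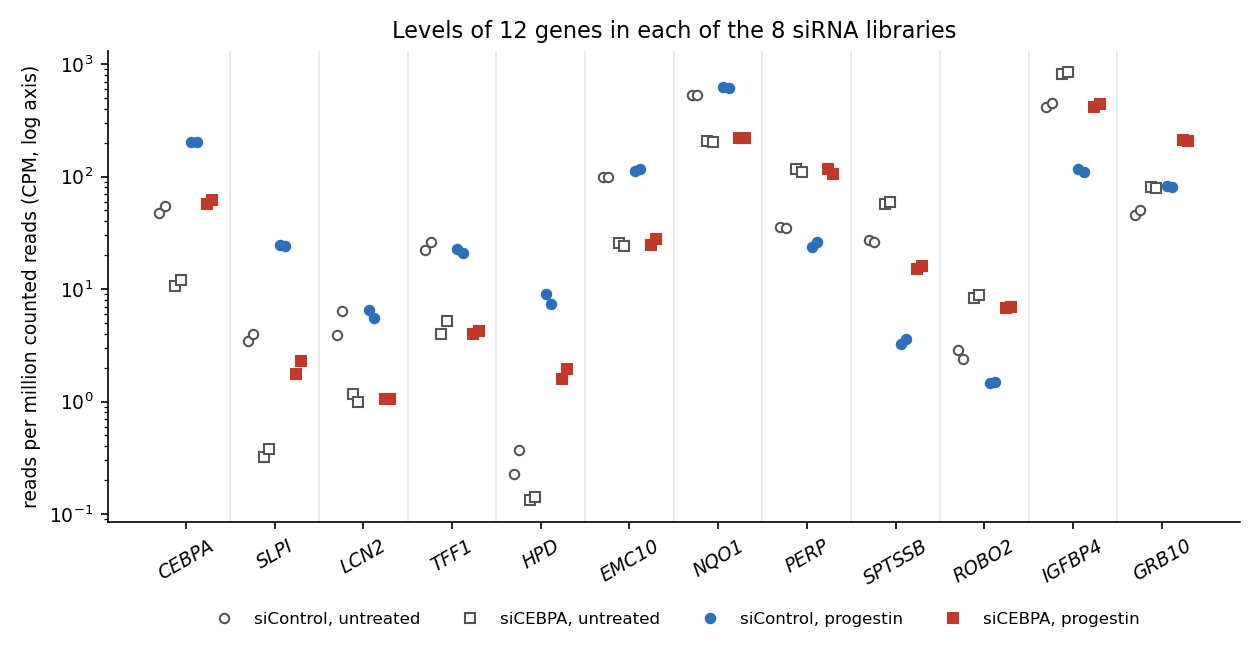
Level of 12 genes in each of the 8 siRNA libraries, in CPM on a log axis, with open symbols for untreated and filled symbols for progestin-treated cells, circles for siControl and squares for siCEBPA. CEBPA in the 2 siCEBPA progestin libraries (57.6 and 61.9 CPM) lies near the untreated siControl libraries (47.5 and 54.2 CPM), and SLPI falls from 24.6 and 24.0 CPM to 1.76 and 2.31 CPM.

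Of 18351 genes tested, 8192 were called (44.6%). Among them 4133 were higher (22.5%) and 4059 lower (22.1%), with a median change over all genes of 0.02. Most calls were small, since 66.2% of them were under 1.5-fold. Changes of at least 2-fold were more often rises, 865 genes (4.71%), than falls, 344 genes (1.87%). The balance of directions moved with the scaling: with no scaling factors 64.9% of calls were higher, against 50.5% as reported, and the median over all genes was 0.106. No gene called under both had opposite signs. It also moved with the level of the gene. Below 1 CPM, 663 of 5199 genes were higher and 221 lower, whereas above 100 CPM 568 of 2640 were higher and 1165 lower. The median change was 0.214 in the first of these groups and −0.081 in the second. The median SE was 0.462 in the first and 0.044 in the second, so small changes in either direction were harder to detect at low levels.

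**Figure D2:**
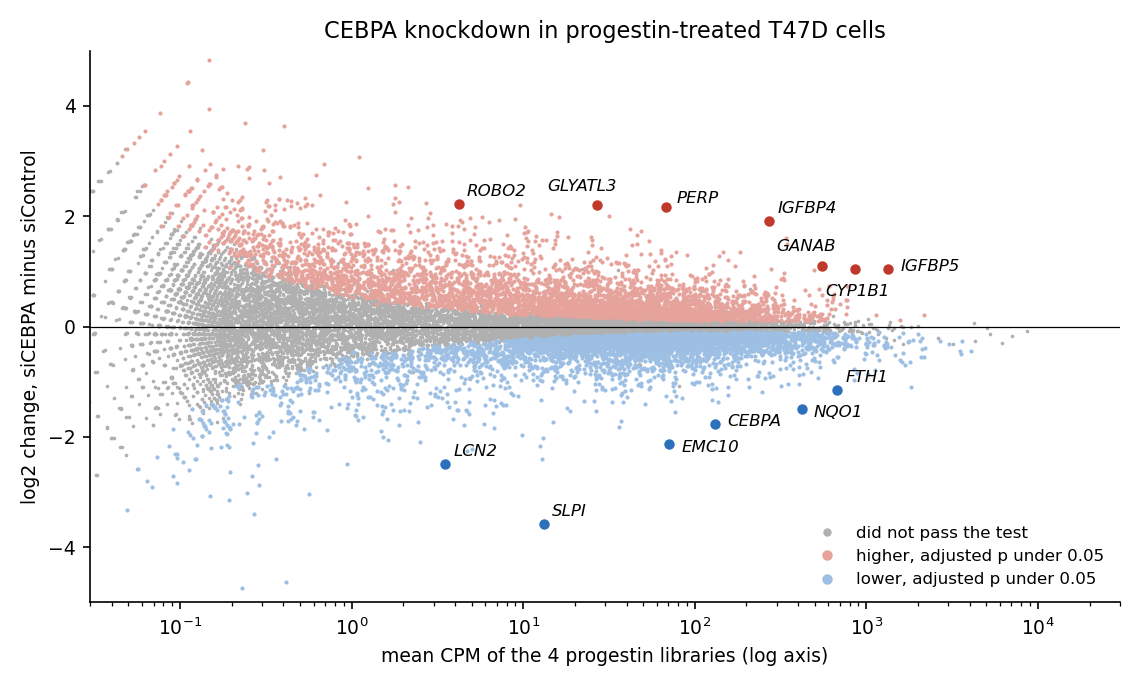
Log2 change by siCEBPA with progestin for each gene against its mean CPM in the 4 progestin libraries (log axis); red and blue points passed the test and grey points did not. SLPI (−3.58) stands lowest of the marked genes and ROBO2 (2.22) highest, and 60 genes lie outside the axes.

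Secreted proteins were among the genes that fell. SLPI, a protease inhibitor of mucosal secretions, was at 24.6 and 24.0 CPM in siControl and at 1.76 and 2.31 CPM in siCEBPA. That was the largest fall among genes of at least 5 CPM, −3.58 ± 0.12 (adjusted p = 1.18e-11) or 12-fold. LCN2, the iron-sequestering lipocalin, was at 6.46 and 5.50 CPM in siControl and at 1.06 and 1.07 CPM in siCEBPA (−2.49 ± 0.24, adjusted p = 3.54e-06). TFF1, a trefoil peptide and classical oestrogen target, stood at 22.5 and 20.8 CPM against 3.95 and 4.28 CPM (−2.40 ± 0.12, adjusted p = 1.38e-09). All 3 were at least 5-fold lower. This ranking took only genes whose 2 groups did not overlap. GDF15, a stress-induced cytokine, went from 14.5 and 16.6 CPM to 3.21 and 4.82 CPM (−1.96 ± 0.17, adjusted p = 2.23e-05). FMOD, a small matrix proteoglycan, changed by −1.79 ± 0.12 (adjusted p = 8.91e-09), and SECTM1, a secreted and transmembrane protein, by −1.82 ± 0.23 (adjusted p = 0.00224). The siCEBPA libraries of SECTM1, at 13.3 and 18.5 CPM, differed from each other but did not reach the siControl libraries, at 55.3 and 57.0 CPM.

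Other large falls were in intracellular proteins. EMC10, a subunit of the complex that inserts membrane proteins into the endoplasmic reticulum (ER), was at 113 and 117 CPM in siControl and 24.8 and 27.9 CPM in siCEBPA (−2.12 ± 0.06, adjusted p = 2.66e-12). CLGN, an ER chaperone related to calnexin, was at 22.0 and 18.7 CPM against 4.22 and 4.90 CPM (−2.16 ± 0.12, adjusted p = 4.52e-09). HPD, an enzyme of tyrosine breakdown, was at 9.06 and 7.40 CPM against 1.57 and 1.96 CPM (−2.23 ± 0.17, adjusted p = 3.81e-08). Each of these enzymes and chaperones was more than 4-fold lower. TMEM154, a membrane protein of little known function, changed by −2.25 ± 0.13 (adjusted p = 2.05e-09), and TM4SF18-AS1, an antisense RNA, by −2.02 ± 0.08 (adjusted p = 6.41e-11). Counting used the strand, so reads of TM4SF18-AS1 are separated from those of the gene opposite. Among genes with many reads, NQO1, a quinone reductase, fell from 620 and 617 CPM to 220 and 220 CPM (−1.49 ± 0.04, adjusted p = 8.77e-13). FTH1, the ferritin heavy chain, fell from 941 and 926 CPM to 413 and 426 CPM (−1.15 ± 0.05, adjusted p = 4.64e-11). Processed copies of FTH1 lie elsewhere in the genome, and how reads with several alignments were shared is not given in the sources used here.

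Promoters of tested genes were read from RefSeq (GRCh38.p14), 250 bases before the annotated start on the gene's strand. They matched 12326 of the 18351 tested genes. The letters TTGCNNAA, a general C/EBP site, were searched on both strands. They were found in 6.18% of all tested promoters, in 5.96% of those of genes called lower, in 13.1% (26 of 199) of those lower by at least 2-fold and in 8.65% (45 of 520) of those higher by at least 2-fold. The palindrome TTGCGCAA, which is one form of that motif, was in 21 of all tested promoters. The letters TGATGNAA of a C/EBP-ATF element were in 1.52% of all, in 4.52% (9 of 199) of those lower by at least 2-fold and in 1.54% of those higher by at least 2-fold. These shares are descriptions, and whether a factor binds there was not tested. The 4 promoters printed belong to LCN2 and TMEM154, among the largest falls, and to ASNS and CHAC1 of the amino acid response described below. Only promoters with a match were considered for printing. That of SPTSSB, among the largest rises, also holds a C/EBP site, TTTAGCAA, beginning 63 bases before the start. Of 22 promoters of the amino acid response 3 (13.6%) hold TGATGNAA. In the printed sequences capitals mark the matched letters on either strand. The match begins 143 bases before the start in LCN2 (chr9:128149203-128149452, plus strand). In TMEM154 (chr4:152679998-152680247, minus strand) one form of each motif begins 120 and 82 bases before the start. That of ASNS (chr7:97872409-97872658, minus strand) begins 68 bases before the start, and that of CHAC1 (chr15:40953221-40953470, plus strand) 209 bases before it. The GENCODE models used for counting begin upstream of the RefSeq start in all 4 genes, so the printed windows lie partly within those models.
LCN2: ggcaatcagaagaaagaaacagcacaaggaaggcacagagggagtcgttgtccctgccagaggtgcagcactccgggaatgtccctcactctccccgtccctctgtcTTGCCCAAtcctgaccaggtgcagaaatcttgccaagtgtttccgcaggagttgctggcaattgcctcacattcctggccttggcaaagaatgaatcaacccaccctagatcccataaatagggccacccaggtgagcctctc
TMEM154: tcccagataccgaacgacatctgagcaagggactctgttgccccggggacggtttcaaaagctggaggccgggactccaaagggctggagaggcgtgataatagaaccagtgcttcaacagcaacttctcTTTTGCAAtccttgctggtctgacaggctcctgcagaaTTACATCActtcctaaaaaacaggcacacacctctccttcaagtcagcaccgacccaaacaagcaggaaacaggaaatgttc
ASNS: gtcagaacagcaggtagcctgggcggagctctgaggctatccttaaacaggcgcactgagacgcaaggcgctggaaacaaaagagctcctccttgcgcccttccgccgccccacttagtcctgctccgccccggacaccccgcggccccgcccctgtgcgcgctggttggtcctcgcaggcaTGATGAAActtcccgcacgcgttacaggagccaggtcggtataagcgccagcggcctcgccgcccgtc
CHAC1: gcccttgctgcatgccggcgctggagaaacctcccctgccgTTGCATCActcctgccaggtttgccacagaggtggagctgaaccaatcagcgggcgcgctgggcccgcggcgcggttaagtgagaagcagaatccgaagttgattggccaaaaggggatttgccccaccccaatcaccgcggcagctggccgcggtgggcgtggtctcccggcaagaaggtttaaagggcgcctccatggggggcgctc

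The largest rises were in membrane, matrix and metabolic genes. ROBO2, a receptor for the guidance protein SLIT, was at 1.47 and 1.49 CPM in siControl and at 6.83 and 6.99 CPM in siCEBPA (2.22 ± 0.13, adjusted p = 3.14e-09). PERP, a p53-regulated protein of desmosomes, was at 23.8 and 26.1 CPM against 118 and 105 CPM (2.16 ± 0.06, adjusted p = 4.18e-12). SPTSSB, a small subunit that sets the substrate of sphingolipid synthesis, was at 3.23 and 3.59 CPM against 15.1 and 16.2 CPM (2.20 ± 0.08, adjusted p = 3.16e-11). Each was more than 4-fold higher, in a ranking limited to genes whose 2 groups did not overlap. GLYATL3, an amino acid acyltransferase, rose by 2.20 ± 0.11 and the scavenger receptor SCARA3 by 2.03 ± 0.08. OGFR, the opioid growth factor receptor, rose by 2.00 ± 0.12, and LYPD6, a modulator of WNT and nicotinic receptors, by 1.99 ± 0.16. The zinc finger gene ZNF678 rose by 1.99 ± 0.08 and the nuclear transport gene RANBP3L by 1.97 ± 0.13. AKAP12, a kinase anchoring scaffold, rose by 1.95 ± 0.11, the GABA receptor subunit GABRA3 by 1.93 ± 0.12 and the basement membrane collagen COL4A6 by 1.93 ± 0.14. Adjusted p of these 9 genes ran from 3.46e-11 (SCARA3) to 1.81e-07 (OGFR). In genes with many reads, IGFBP5, an IGF binding protein, rose from 886 and 874 CPM to 1787 and 1837 CPM (1.04 ± 0.05, adjusted p = 9.81e-11). CYP1B1, an oxidase that hydroxylates oestradiol, rose from 565 and 555 CPM to 1126 and 1184 CPM (1.04 ± 0.04, adjusted p = 5.17e-11). GANAB, the catalytic subunit of ER glucosidase II, rose from 355 and 350 CPM to 756 and 755 CPM (1.10 ± 0.04, adjusted p = 7.02e-12). All 3 were about 2-fold higher, with replicate libraries that differed little.

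Some other members of the C/EBP family fell with CEBPA. In the list of that family and its Tribbles regulators 6 of 7 tested genes were lower and none higher, with a median of −0.67. The 6 include CEBPA itself, the target of the siRNA, whose fall was set by the design. CEBPB, a family member that pairs with C/EBPα, was at 22.0 and 20.8 CPM in siControl and 11.2 and 11.8 CPM in siCEBPA (−0.90 ± 0.08, adjusted p = 2.79e-07). DDIT3 (CHOP), which blocks its partners, fell by 0.67 on the log2 scale (adjusted p = 7.92e-07), TRIB1 fell by 0.72 (adjusted p = 1.23e-06) and TRIB3 fell by 0.31 (adjusted p = 0.0178). CEBPD lay close to the threshold at −0.50 ± 0.18 (adjusted p = 0.0486). The calls of TRIB3 and CEBPD were lost without siCEBPA progestin replicate 1, with −0.27 (adjusted p = 0.143) and −0.28 (adjusted p = 0.17), and without either siControl progestin library. That of TRIB3 was also lost without siCEBPA progestin replicate 2 (adjusted p = 0.0724). CEBPG, a family member without an activation domain, did not pass, with 0.05 ± 0.05 (adjusted p = 0.45). Of 16 tested genes of secreted mucosal defence 7 were lower and 2 higher (median −0.43, but −0.20 without siControl progestin replicate 1 and −0.77 with a mean of at least 1 CPM). Besides SLPI, LCN2 and TFF1 the falls included AGR2, a disulphide isomerase of mucus-secreting cells, from 1426 and 1406 CPM to 844 and 793 CPM (−0.79 ± 0.04, adjusted p = 1.03e-09), S100P (−0.84 ± 0.07, adjusted p = 1.14e-06) and S100A9 (−1.13 ± 0.13, adjusted p = 3.89e-06). CLU, a secreted chaperone, went the other way, from 333 and 320 CPM to 690 and 646 CPM (1.03 ± 0.04, adjusted p = 7.52e-11). In the list of acute phase and complement genes, classical liver targets of the family, 3 of 10 were lower and 2 higher, which is near the background. Complement C3 changed by −0.93 ± 0.14 (adjusted p = 0.000266) and the protease inhibitor SERPINA1 by −0.55 ± 0.05 (adjusted p = 3.23e-07). Only 5 of 12 myeloid target genes were tested, with 2 lower and 1 higher, AZU1 (2.56-fold). Their median was −0.98, but 0.16 with a mean of at least 1 CPM, where none was lower. Both falls were at low levels: the receptor CSF3R, at 0.208 and 0.295 CPM against 0.0728 and 0.0318 CPM, and the antimicrobial peptide CAMP, which had no read in 1 siCEBPA library. Neither was called without siControl progestin replicate 2 (CSF3R −1.94, adjusted p = 0.0962, and CAMP −2.42, adjusted p = 0.121) or without siCEBPA progestin replicate 2.

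**Figure D3:**
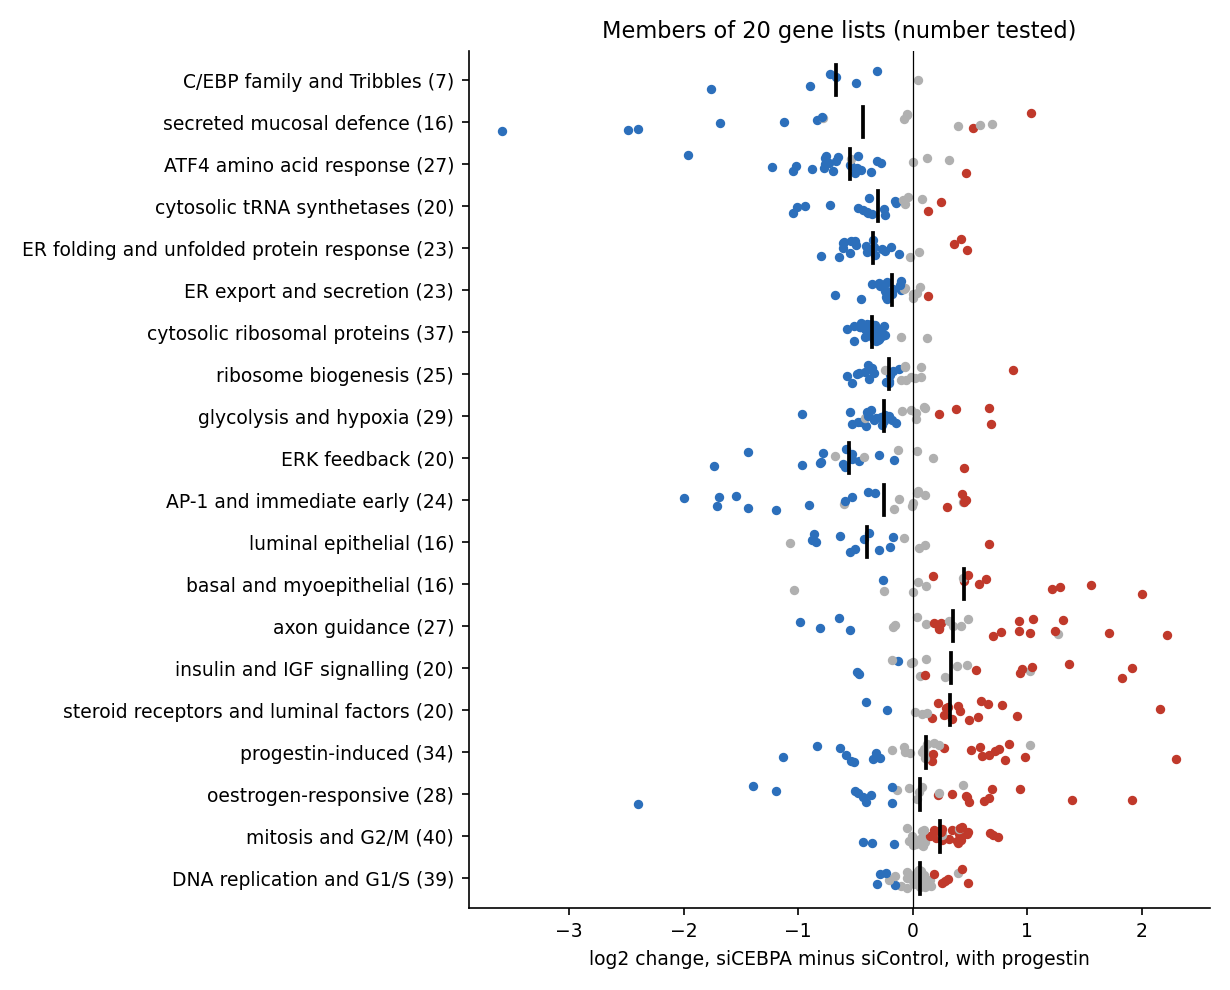
Log2 change by siCEBPA with progestin for each tested member of 20 gene lists, with the number tested in brackets; red and blue points passed the test, grey points did not, and black bars are medians. The medians of the amino acid response (−0.55) and of ERK feedback (−0.56) lie left of 0 and those of basal genes (0.44) and axon guidance genes (0.35) right of it.

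Genes of the amino acid stress response were lower as a group. ATF4 is a transcription factor made when amino acids run short or the ER is stressed, and it activates genes for amino acid synthesis, uptake and tRNA charging. Of 27 tested genes of this response 22 were lower and 1 higher, with a median of −0.55 beside 0.02 over all genes. ASNS, asparagine synthetase, fell from 136 and 132 CPM to 60.9 and 68.8 CPM (−1.05 ± 0.07, adjusted p = 4.03e-07). CHAC1, a glutathione-degrading enzyme, fell from 11.6 and 13.0 CPM to 5.11 and 5.31 CPM (−1.23 ± 0.10, adjusted p = 1.15e-07). DDIT4 (REDD1), an inhibitor of mTOR complex signalling, fell from 127 and 131 CPM to 61.3 and 65.7 CPM (−1.02 ± 0.06, adjusted p = 2.05e-09). In each the siCEBPA libraries were close to each other and lay below both siControl libraries. The serine and glycine enzymes SHMT2 (−0.77 ± 0.05), PSPH (−0.88 ± 0.06) and PSAT1 (−0.70 ± 0.05) were also lower, with adjusted p from 3.53e-09 to 1.21e-08. So were both chains of the large neutral amino acid carrier, SLC7A5 (−0.77 ± 0.08, adjusted p = 4.11e-05) and SLC3A2 (−0.73 ± 0.06, adjusted p = 1.24e-07). ATF4 mRNA fell from 243 and 238 CPM to 171 and 168 CPM (−0.50 ± 0.05, adjusted p = 7.79e-07), and the list's rise was ATF3, a repressor of the same family (0.47 ± 0.08, adjusted p = 0.000193). Cytosolic tRNA synthetases followed the same direction, 14 of 20 lower and 2 higher (median −0.30), with 1 higher without either siControl progestin library or siCEBPA progestin replicate 1. GARS1, for glycine, fell from 553 and 544 CPM to 267 and 264 CPM (−1.05 ± 0.04, adjusted p = 4.27e-11), TARS1, for threonine, by 1.01 on the log2 scale, and WARS1, for tryptophan, by 0.94.

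The protein folding and export machinery of the ER was lower by smaller amounts. Of 23 genes of ER folding and the unfolded protein response 18 were lower and 3 higher (median −0.35). HSPA5 (BiP), the main ER chaperone, was at 2224 and 2152 CPM in siControl and at 1385 and 1411 CPM in siCEBPA (−0.65 ± 0.05, adjusted p = 2.03e-07). Its cochaperone DNAJB9 fell by 0.80 on the log2 scale (adjusted p = 2.72e-08), the chaperone HYOU1 by 0.61 (adjusted p = 1.52e-07), and EDEM1 and SEL1L, which send misfolded proteins to degradation, by 0.61 and 0.51 (adjusted p = 5.85e-08 and 5.03e-08). XBP1, a transcription factor of this response, was also lower (−0.41 ± 0.04, adjusted p = 1.77e-06). CALR, calreticulin, was higher, from 648 and 650 CPM to 909 and 896 CPM (0.48 ± 0.04, adjusted p = 3.94e-08), as was GANAB above, and both act in the glycoprotein folding cycle of calnexin and calreticulin. In the list of ER export and secretion 16 of 23 were lower and 1 higher (median −0.18). SEC24D, a cargo adaptor of COPII vesicles, fell from 195 and 191 CPM to 120 and 121 CPM (−0.68 ± 0.04, adjusted p = 3.53e-09) and SEC23B, its coat partner, by 0.45 on the log2 scale (adjusted p = 2.11e-07). The translocon genes SEC61A1 and SSR1 fell by 0.29 and 0.36.

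Ribosomal protein genes moved almost as a block. Of 37 cytosolic ribosomal protein genes tested 35 were lower and none higher, with a median of −0.36 and a range of −0.57 to 0.12. RPL4 fell from 1743 and 1708 CPM to 1218 and 1192 CPM (−0.52 ± 0.04, adjusted p = 3.15e-08). The 2 that did not pass were RPL15 (−0.10 ± 0.04, adjusted p = 0.0627) and RPL11 (0.12 ± 0.05, adjusted p = 0.0587), named after their values were seen. RPL11 was called higher in 8 alternatives, such as without siCEBPA progestin replicate 2 (adjusted p = 0.0191) or siControl progestin replicate 1 (adjusted p = 0.0423), and RPL15 was called lower in 5. These genes have many processed copies and near-identical reads are uncertain. The list's median was below 0 under each setting tried, no scaling factors included. Of 25 genes of ribosome biogenesis 15 were lower and 1 higher (median −0.21), among them POLR1C, a subunit of RNA polymerases I and III (−0.57 ± 0.06), and MYC (−0.53 ± 0.05). NOLC1, a nucleolar phosphoprotein, was the rise, from 234 and 230 CPM to 429 and 422 CPM (0.88 ± 0.04, adjusted p = 4.49e-10). Of 29 genes of glycolysis and hypoxia 18 were lower and 4 higher (median −0.25). VEGFA, the vascular growth factor, fell from 73.6 and 70.4 CPM to 35.5 and 38.4 CPM (−0.96 ± 0.08, adjusted p = 9.88e-08), and the glycolytic enzymes GPI (−0.53 ± 0.04), ALDOA (−0.48 ± 0.04) and HK1 (−0.41 ± 0.04) fell with it.

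Steroid receptors and luminal transcription factors were mostly higher. Of 20 tested 15 were higher and 2 lower (median 0.32). PGR, the progesterone receptor, was at 268 and 277 CPM in siControl and at 386 and 377 CPM in siCEBPA (0.49 ± 0.04, adjusted p = 4.60e-08). ESR1, the oestrogen receptor α gene, was at 101 and 102 CPM against 128 and 129 CPM (0.34 ± 0.05, adjusted p = 1.51e-05). Both receptors were higher in each siCEBPA library than in either siControl library. NR3C1, the glucocorticoid receptor gene, rose by 0.57 ± 0.07, FOXA1, a pioneer factor for both receptors, by 0.41 ± 0.05 and SPDEF by 0.78 ± 0.10. GATA3 did not pass (0.02 ± 0.04, adjusted p = 0.792). Targets of these receptors had no common direction: of 34 progestin-induced genes 13 were higher and 9 lower (median 0.12), and of 28 oestrogen-responsive genes 11 were higher and 10 lower (median 0.07). For the first, DUSP1, a MAP kinase phosphatase, fell from 45.2 and 45.4 CPM to 20.9 and 20.4 CPM (−1.13 ± 0.06, adjusted p = 1.38e-09) and TSC22D3 (GILZ) from 644 and 612 CPM to 457 and 425 CPM (−0.51 ± 0.05, adjusted p = 4.06e-07). PDK4, a kinase that restrains pyruvate oxidation, rose from 22.1 and 21.4 CPM to 33.6 and 32.4 CPM (0.60 ± 0.08, adjusted p = 9.78e-06), and NDRG1, a stress- and differentiation-linked gene, by 0.67 ± 0.07 (adjusted p = 1.00e-06). FKBP5, a chaperone of steroid receptors, changed by 0.17 ± 0.04 (adjusted p = 0.00315), or by 0.14 without siControl progestin replicate 2 (adjusted p = 0.0672). Among oestrogen-responsive genes TFF1 and OLFM1 (−1.40 ± 0.07) fell, while IRS1 (0.94 ± 0.06), MYB (1.39 ± 0.12) and CXCL12 (0.62 ± 0.05) rose. IGFBP4, an IGF binding protein, rose from 118 and 109 CPM to 414 and 440 CPM (1.91 ± 0.05, adjusted p = 3.11e-12).

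Feedback genes of ERK signalling were lower and some growth factor genes higher. Of 20 genes that ERK signalling induces, many of which damp it, 14 were lower and 1 higher (median −0.56). DUSP6, the ERK phosphatase, was at 3.47 and 4.00 CPM in siControl and at 0.860 and 1.40 CPM in siCEBPA (−1.74 ± 0.16, adjusted p = 6.81e-07). SPRY2, a Sprouty inhibitor, was at 6.93 and 6.66 CPM against 3.64 and 4.13 CPM (−0.81 ± 0.10, adjusted p = 8.77e-06), and EPHA2, an ephrin receptor, at 13.3 and 14.0 CPM against 7.62 and 8.27 CPM (−0.78 ± 0.09, adjusted p = 3.23e-06). For these 3 the groups did not overlap. The phosphatase DUSP4 was the rise (0.44 ± 0.06, adjusted p = 3.19e-05). Of 24 AP-1 and immediate early genes 11 were lower and 4 higher (median −0.25). JUNB fell from 53.1 and 60 CPM to 14.6 and 19.9 CPM (−1.71 ± 0.19, adjusted p = 0.00045) and the orphan receptor NR4A2 from 2.72 and 2.13 CPM to 0.656 and 0.556 CPM (−2.00 ± 0.20, adjusted p = 1.01e-06). JUND fell by 0.91 ± 0.11 (adjusted p = 3.16e-05). Of 12 ligands and receptors of the ERBB family 6 were higher and 2 lower (median 0.49). Without siControl progestin replicate 1 only 3 were higher, and the median was 0.33 without siCEBPA progestin replicate 2, 0.22 with a mean of at least 1 CPM and 0.16 with no filter. The ligand TGFA rose from 44.1 and 42.5 CPM to 80.0 and 75 CPM (0.84 ± 0.06, adjusted p = 9.56e-09) and the receptor ERBB4 from 6.70 and 7.37 CPM to 15.9 and 16.0 CPM (1.18 ± 0.08, adjusted p = 1.57e-08). ERBB3, the kinase-poor partner receptor, fell from 663 and 633 CPM to 415 and 419 CPM (−0.64 ± 0.04, adjusted p = 2.80e-09).

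Many epithelial genes changed. Of 16 luminal keratin and junction genes 11 were lower and 1 higher (median −0.40), and of 16 basal and myoepithelial genes 9 were higher and 1 lower (median 0.44). CLDN4, a tight junction claudin, fell from 1133 and 1141 CPM to 622 and 646 CPM (−0.84 ± 0.04, adjusted p = 1.66e-10), and CLDN7 fell by 0.88 on the log2 scale (adjusted p = 1.30e-09). The luminal keratins KRT8 (−0.55 ± 0.05) and KRT19 (−0.50 ± 0.05) fell less, with adjusted p of 1.33e-07 and 3.23e-06. On the basal side CDH3, P-cadherin, rose from 42.3 and 42.4 CPM to 103 and 103 CPM (1.28 ± 0.04, adjusted p = 1.21e-11), LAMB3, a laminin chain, from 1.82 and 1.61 CPM to 5.29 and 4.80 CPM (1.55 ± 0.14, adjusted p = 1.73e-07), and the keratin KRT5 from 0.464 and 0.537 CPM to 1.91 and 2.10 CPM (2.00 ± 0.26, adjusted p = 1.99e-05). Of the other basal markers given above, ACTA2 fell (−0.26, adjusted p = 0.0427), a call lost with upper quartile factors and with DESeq2. TP63, at 0.588 CPM or less, rose (1.21, adjusted p = 0.0145), on 16 and 10 reads in siControl and 29 and 37 in siCEBPA. Its change was 0.97 without siControl progestin replicate 2 and 0.96 without siCEBPA progestin replicate 2. KRT14 and KRT17 were lower on average but did not exceed 0.318 CPM. Desmosome genes had no common direction, 3 of 11 higher and 4 lower. PKP1 rose (1.0 ± 0.07, adjusted p = 3.26e-08) while PKP2 fell (−0.87 ± 0.05, adjusted p = 5.44e-09) and JUP, plakoglobin, fell (−0.74 ± 0.05, adjusted p = 9.94e-09). Of 27 axon guidance genes 14 were higher and 4 lower (median 0.35), and 9 were higher without siControl progestin replicate 1. Beside ROBO2 the ligands NTN1 (1.31 ± 0.06), NTN4 (1.05 ± 0.07) and SEMA3C (0.77 ± 0.05) rose, and PLXND1, a semaphorin receptor, fell (−0.99 ± 0.07). Of 18 targets of YAP and TEAD 6 were higher and 4 lower (2 lower without siControl progestin replicate 2 or either siCEBPA progestin library), and CCN1 was the largest of the rises, from 26.4 and 28.9 CPM to 69.0 and 69.0 CPM (1.32 ± 0.07, adjusted p = 3.74e-10).

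Insulin and lipid genes changed in part. Of 20 genes of insulin and IGF signalling 8 were higher and 3 lower (median 0.33, or 0.13 with a mean of at least 1 CPM). GRB10, an adaptor that restrains the insulin receptor, rose from 83.2 and 80.9 CPM to 213 and 209 CPM (1.36 ± 0.05, adjusted p = 1.76e-11). The receptor gene INSR (−0.47 ± 0.10, adjusted p = 0.00136) and its substrate IRS2 (−0.49 ± 0.11, adjusted p = 0.00231) fell. Of 26 genes of lipid synthesis and storage 10 were lower and 4 higher (median −0.12), with 2 higher without siControl progestin replicate 1 or siCEBPA progestin replicate 1 and 7 higher with no scaling factors. Genes called lower made up 22.1% of all tested genes and 37.0% of protein-coding genes of at least 20 CPM. SCD, the fatty acid desaturase, fell from 4680 and 4721 CPM to 3545 and 3345 CPM (−0.45 ± 0.05, adjusted p = 2.11e-06). The fat lipase PNPLA2 fell by 0.93 on the log2 scale (adjusted p = 1.39e-07). SREBF1, the transcription factor of lipid synthesis, fell by 0.63 (adjusted p = 1.08e-05). In cholesterol synthesis and uptake 8 of 23 were higher and 5 lower, and MVK, mevalonate kinase, rose (0.47 ± 0.05).

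Among cell cycle genes those of mitosis moved more than those of replication. Of 40 genes of mitosis and G2/M 21 were higher and 3 lower (median 0.24). The kinetochore motor CENPE was at 40.3 and 41.6 CPM in siControl and at 69.3 and 63.3 CPM in siCEBPA (0.70 ± 0.06, adjusted p = 1.20e-07), and the spindle gene ASPM at 57.4 and 62.1 CPM against 98.0 and 92.2 CPM (0.67 ± 0.06, adjusted p = 4.39e-07). KIF20B rose by 0.74 ± 0.07, and the topoisomerase TOP2A by 0.25 ± 0.06 (adjusted p = 0.00492), or 0.22 without siControl progestin replicate 1 (adjusted p = 0.0605). The mitotic kinase PLK1 fell (−0.43 ± 0.05, adjusted p = 7.46e-06). Of 39 genes of DNA replication and G1/S 6 were higher and 4 lower, under the background in both directions. The higher count was 3 without siControl progestin replicate 1 and 13 with no scaling factors, and 2 were lower without siControl progestin replicate 2. Among 25 G1 cyclins, kinases and inhibitors 5 were higher and 10 lower (median −0.12). CDK6, a partner of D cyclins, rose from 8.79 and 9.08 CPM to 28.1 and 27.2 CPM (1.63 ± 0.08, adjusted p = 2.43e-10), and the pocket protein genes RBL1 (0.74 ± 0.07) and RBL2 (0.64 ± 0.05) rose. CCND1, cyclin D1, did not pass, at 283 and 306 CPM against 309 and 295 CPM (0.04 ± 0.05, adjusted p = 0.571), although it did with no scaling factors. CDKN1A (p21), an inhibitor induced by p53 and by progestin, fell from 291 and 294 CPM to 211 and 219 CPM (−0.44 ± 0.04, adjusted p = 4.28e-07). Of 25 p53 targets 10 were lower and 4 higher (median −0.14). For comparison, 22.1% of all tested genes and 37.0% of protein-coding genes of at least 20 CPM were lower. The G1 and p53 lists were not split by level, and their lower counts are near the second share. The cohesin gene RAD21 did not pass (−0.10 ± 0.05, adjusted p = 0.121), but was called lower with no filter on low counts (adjusted p = 0.0235), with all 12 libraries (0.0403) and with the replicate block (0.0249).

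Interferon-stimulated genes and mitochondrial transcripts had few calls. Of 33 interferon-stimulated genes none was higher and 4 were lower, among them IFIT2 (−0.65 ± 0.15, adjusted p = 0.00312) and 29 did not pass. The list's median was 0.28, above 0 although the called members were lower, and −0.21 without siCEBPA progestin replicate 2. Their summed level was 1380 and 1130 CPM in siControl and 1060 and 1990 CPM in siCEBPA. Of 13 mitochondrially encoded mRNAs 1 was lower, MT-CYB (−0.26 ± 0.07, adjusted p = 0.0156), whose call was lost without siCEBPA progestin replicate 2 (−0.21, adjusted p = 0.0852) and without either siControl progestin library. With only the 4 progestin libraries fitted 10 of the 13 were lower. Their summed level was 35100 and 34200 CPM against 30600 and 28000 CPM. The part of these levels in the other changes was not tested.

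The knockdown effect with progestin resembled that without it for most genes. Without hormone 8558 of the 18351 genes were called (46.6%). Of the genes lower with progestin 3065 (75.5%) were also lower without it, which is 69.6% of those lower without it. For higher genes 2863 were shared, 69.3% and 68.9%. Over all tested genes the 2 sets of changes, which share no library, had a Pearson r of 0.64 and a Spearman rho of 0.69; genes are not independent replicates and share libraries and depth. Of the largest falls SLPI changed by −3.42 ± 0.18 without hormone, LCN2 by −2.27 ± 0.23, TFF1 by −2.41 ± 0.12 and EMC10 by −1.99 ± 0.06, and in none of them did the difference of effects pass (adjusted p = 0.822, 0.807, 0.982 and 0.421).

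The difference of the 2 effects passed in 1329 genes (7.24%), 768 with a higher value with progestin (4.19%) and 561 with a lower one (3.06%). These counts depend most on the siControl progestin libraries: without replicate 1 of that group they were 383 and 309, and without replicate 2 they were 474 and 305. Both effects were called with opposite signs in 173 genes. NES, the filament protein nestin, showed the largest negative difference by the naming rule. It fell by 1.42 on the log2 scale with progestin, from 11.9 and 11.3 CPM to 4.31 and 4.36 CPM, and rose by 1.29 ± 0.17 without, a difference of −2.70 ± 0.21 (adjusted p = 1.44e-06). The desmosome gene PKP2 fell with progestin and rose by 0.63 ± 0.05 without it (difference −1.49 ± 0.08, adjusted p = 5.22e-08). So did ARID5B, a chromatin factor (−1.65 ± 0.10), and EFNA3, an ephrin ligand (−1.35 ± 0.08). In the other direction PKP1 rose by 1.0 with progestin and fell by 0.91 without it (difference 1.91 ± 0.18, adjusted p = 1.16e-05). RASD2 (1.75 ± 0.15) and GABRQ (2.04 ± 0.24) did likewise. STEAP4, a metalloreductase, fell by 1.64 without hormone and rose by 0.30 with it (difference 1.94 ± 0.14, adjusted p = 7.10e-07), though the rise was not called without siCEBPA progestin replicate 1 (0.19, adjusted p = 0.171) or siControl progestin replicate 2 (0.24, adjusted p = 0.134). CHRM4, a muscarinic receptor gene, rose 3.5-fold with progestin, from 4.35 and 4.72 CPM to 15.5 and 16.2 CPM, while its change without hormone was 0.14 ± 0.21 (adjusted p = 0.619). FAXDC2, a sterol-related hydroxylase gene, fell in both, more without hormone (difference 1.87 ± 0.38), but without siCEBPA untreated replicate 1 the difference missed the threshold (1.33, adjusted p = 0.0856).

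**Figure D4:**
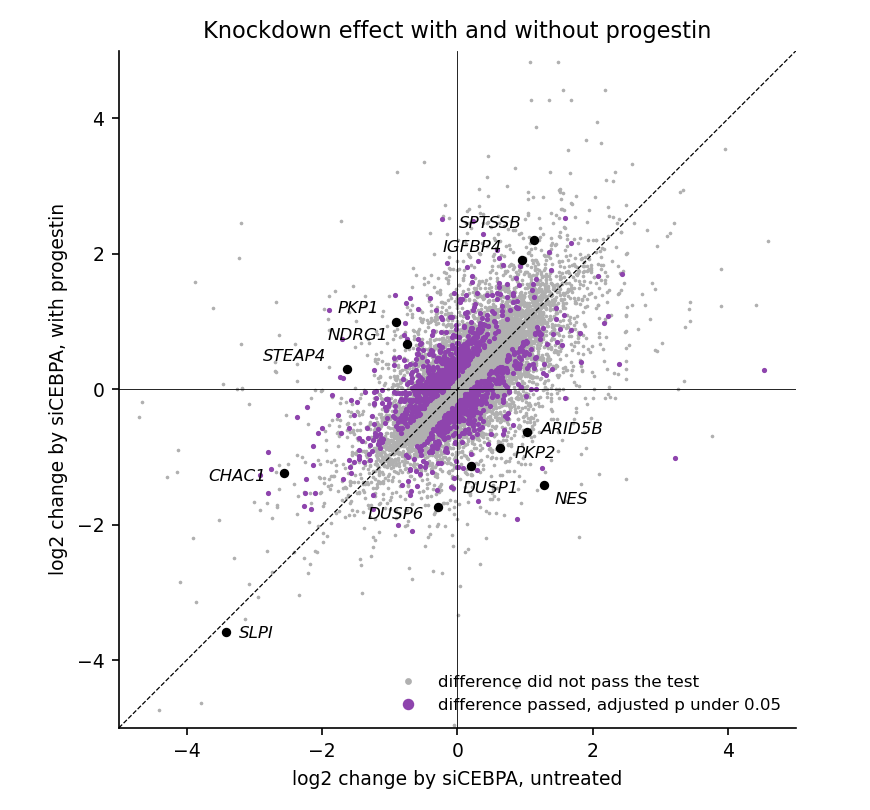
Log2 change by siCEBPA with progestin against the change without hormone for each tested gene, with genes whose 2 effects differed in purple and a dashed line where both are equal. NES (−1.42 with progestin, 1.29 without) and PKP1 (1.0 and −0.91) lie in opposite corners, SLPI (−3.58 and −3.42) lies near the line, and 13 genes lie outside the axes.

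Several lists held many members whose effect differed, and the values compared here are log2 knockdown effects, not levels. In ER export 9 of 23 members had a lower value with progestin and none a higher one. The list had 16 lower and 1 higher with progestin but 7 lower and 8 higher without (medians −0.18 and −0.01). SEC24D changed by −0.68 with progestin and by −0.07 ± 0.04 without (difference −0.61 ± 0.06, adjusted p = 1.31e-05). ER folding genes gave 7 of 23 with a lower value with progestin and none higher, for instance DNAJB9 (−0.52 ± 0.08), EDEM1 (−0.39 ± 0.07) and PDIA4 (−0.37 ± 0.06). Steroid receptors and luminal factors went the other way, 9 of 20 with a higher value with progestin and 2 with a lower one. PGR rose by 0.49 with progestin and fell by 0.20 without (difference 0.69 ± 0.05, adjusted p = 1.44e-06), ESR1 differed by 0.28 ± 0.06 (adjusted p = 0.0125, or 0.08 without siControl progestin replicate 1) and FOXA1 by 0.43 ± 0.07 (adjusted p = 0.000586). Of 20 ERK feedback genes 5 had a lower value with progestin and 1 a higher one. SPRY2 fell by 0.81 with progestin and rose by 0.45 without (difference −1.26 ± 0.13, adjusted p = 2.64e-05). DUSP6 (−1.45 ± 0.19) and EPHA2 (−0.85 ± 0.13) also differed, as did DUSP1 (−1.34 ± 0.09). The amino acid response fell in both states, 26 of 27 lower without hormone, and the difference was above 0 in 9 members, ATF3 with its rise among them. For CHAC1 the change was −1.23 with progestin and −2.57 ± 0.10 without it (difference 1.33 ± 0.15, adjusted p = 4.47e-05), and for SLC7A5 the difference was 0.64 ± 0.11 (adjusted p = 0.00819, or 0.0713 without siControl progestin replicate 1). In the mitosis list 21 were higher with progestin but 10 without, and the difference itself passed in 4 of 40.

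**Figure D5:**
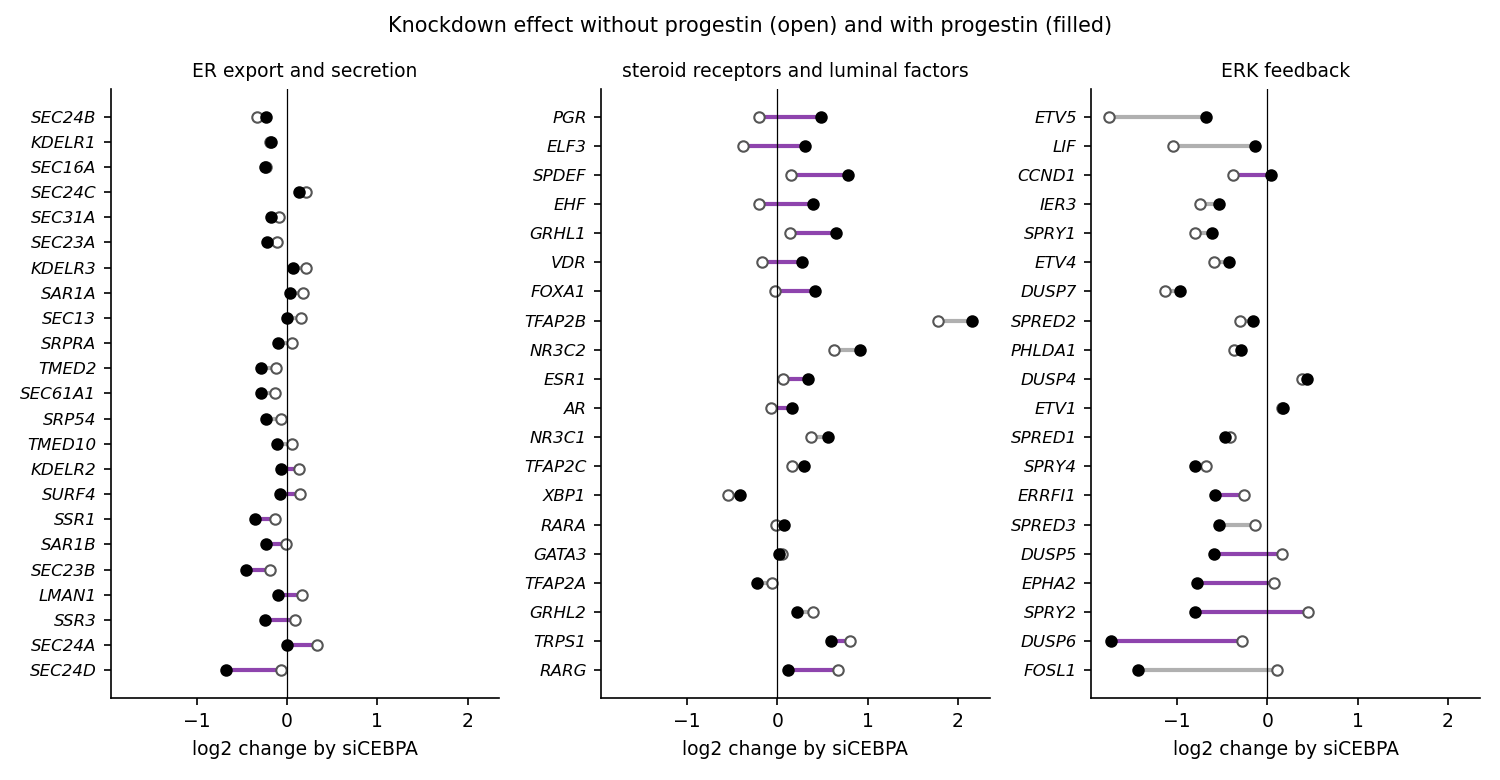
Log2 change by siCEBPA without progestin (open points) and with progestin (filled points) for each tested member of 3 lists, ordered by the difference, with purple lines where the difference passed the test. Filled points lie left of open ones for SEC24D (−0.68 and −0.07) and SPRY2 (−0.81 and 0.45) and right of them for PGR (0.49 and −0.20).

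The hormone change of the siControl cells shares the siControl progestin libraries with the knockdown effect, so the 2 are given only side by side. With hormone 10741 genes were called (58.5%), 5367 higher (29.2%) and 5374 lower (29.3%), but 38.2% of the calls were higher with upper quartile factors and 33.9% with no scaling factors, against 50.0%. SLPI rose by 2.69 ± 0.11 with hormone, and HPD by 4.67 ± 0.20, and both fell in siCEBPA. TFF1 (−0.17 ± 0.10, adjusted p = 0.153) and LCN2 (0.19 ± 0.19, adjusted p = 0.411) did not pass for the hormone and fell with the knockdown. PGR fell by 1.84 on the log2 scale with hormone, FOXA1 fell by 2.60 and IGFBP4 fell by 1.93, and all 3 rose in siCEBPA. SEC24D rose by 1.82 ± 0.04 with hormone and DNAJB9 by 1.49 ± 0.06, and both fell in siCEBPA. Against these, PDK4 rose by 3.37 ± 0.09 and PKP1 by 4.19 ± 0.10 with hormone and rose further in siCEBPA, and DUSP6 fell by 3.22 with hormone and further in siCEBPA. CEBPA itself rose by 1.99 ± 0.06 with hormone in siControl cells (adjusted p = 1.57e-12).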

How the data were processed

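RNA-seq was made from T47D cells with a stranded poly(A) kit (Illumina TruSeq Stranded mRNA), per the labels' protocols. The deposited values are raw counts of read pairs per gene, made by the authors with featureCounts 1.5.1 in paired, reverse-strand mode on GENCODE 24 genes and hg38 from STAR alignments, per the file headers. The headers record no setting for multi-mapping reads. Each table held 60554 genes, of which 55413 (91.5%) were given a symbol by gene identifier.

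The 8 siRNA libraries were fitted together in edgeR 4.0.16 (limma 3.58.1, R 4.3.3): filterByExpr left 18351 genes, scaled by TMM, with group means, the robust quasi-likelihood test (residual degrees of freedom 4, common biological variation 0.0509 as a coefficient), Benjamini-Hochberg adjustment over all tested genes and a threshold of 0.05. The SE is the log2 change over the square root of F. Totals were 62666783 to 70704799 in the 4 progestin libraries and 57364785 to 148624099 in all 8. Pearson r of log2 CPM between replicates was 0.9943 to 0.9957, with a mean chi-square per gene of 4.37 to 14.1, so no 2 libraries were taken as one. The steps were tested on simulated counts.

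The comparison and the gene lists were chosen with earlier results of these data known, and no list was given a p-value. By rule the genes named were the 12 largest rises and falls (mean of at least 5 CPM in a group, no overlap of groups), the 5 called genes of highest mean CPM with a change of at least 2-fold, the 6 largest differences of effects in each direction, the 4 lowest p-values in every list, and CEBPA, CEBPB, PGR, ESR1, CDKN1A, CCND1, TOP2A and RAD21. Some results are not reported here. The text names a part of these, and other list members were named after their values were seen. Alternatives were other scalings and filters, DESeq2 1.42.0, other sets of libraries, a replicate block and leaving out each library. The ICRF and ChIP-seq samples were not analysed here, apart from 4 ICRF libraries in one alternative fit.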

Additional observations from a re-analysis of the deposited data

Results flagged for a closer look

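For 62 of the named genes the effect of the knockdown with progestin differed from that without it, by edgeR's test of the difference itself with adjusted p under 0.05. The values below are that difference on the log2 scale (effect with progestin minus effect without), and progestin and the time label cannot be told apart in them. Among the C/EBP family, the difference was 0.40 for CEBPA, 0.55 for CEBPB and 0.46 for CEBPG. For the amino acid response genes it was 1.33 for CHAC1, 0.73 for ATF3, 0.64 for SLC7A5, 0.36 for SLC3A2, 0.28 for ATF4 and 0.25 for GARS1, with 0.42 for the stress gene DDIT4. Steroid receptors and luminal factors gave 0.69 for PGR, 0.28 for ESR1, 0.43 for FOXA1 and 0.62 for SPDEF. The growth factor receptor gene ERBB3 gave −0.38. Receptor-responsive genes gave 1.41 for NDRG1, 0.96 for IGFBP4, 0.95 for MYB, 0.62 for PDK4, 0.62 for GRB10, 0.49 for IRS1, 0.32 for IGFBP5, 0.23 for CXCL12, −0.30 for FKBP5 and −1.34 for DUSP1.

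Signalling genes with differences below 0 were DUSP6 (−1.45), EFNA3 (−1.35), SPRY2 (−1.26), NR4A2 (−1.11) and EPHA2 (−0.85). ER export and folding genes also had differences below 0, at −0.61 for SEC24D, −0.27 for SEC23B, −0.22 for SSR1, −0.52 for DNAJB9, −0.39 for EDEM1 and −0.37 for PDIA4. Junction and epithelial genes went both ways, with 1.91 for PKP1, 0.49 for PERP, 0.46 for CDH3, −1.49 for PKP2 and −0.30 for CLDN4. Lipid and sugar metabolism gave 1.87 for FAXDC2, 1.07 for SPTSSB, −0.39 for SREBF1, −0.30 for SCD, −0.24 for HK1 and −0.23 for ALDOA. Cell cycle genes gave 0.47 for CDK6, 0.42 for CCND1 and 0.26 for CDKN1A.

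Of the other genes, the largest positive differences were 2.04 for GABRQ, 1.94 for STEAP4, 1.75 for RASD2, 1.67 for CHRM4, 1.33 for AKAP12 and 1.31 for S100P. SCARA3 (0.69), PLXND1 (0.47) and CTCF (0.34) also had differences above 0. The knockdown with progestin nevertheless lowered PLXND1 (1.98-fold) and CTCF (1.37-fold). NES (−2.70), ARID5B (−1.65) and IFIT2 (−0.82) had differences below 0.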

How the results depend on the processing

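No called change or difference of a named gene reversed direction in any alternative, and no gene called in both an alternative and the fit as reported changed sign. With progestin, 10 of 156 named genes lost their call and 6 gained one in at least 1 alternative, and 23 of 62 differences were lost in at least 1. Genes whose effect differed were 768 higher and 561 lower, but 1159 higher with no filter on low counts. Leaving out 1 library, with a lone sample assumed to vary like the other groups, gave 2923 to 3724 genes higher and 3242 to 3689 lower with progestin, 3195 to 3592 and 3559 to 4035 without it, 383 to 811 and 305 to 570 for the difference, and 4757 to 5057 and 4176 to 4840 for the hormone. The difference was lowest without siControl progestin replicate 1 (383 and 309), siControl progestin replicate 2 (474 and 305) and siCEBPA untreated replicate 1 (359 lower). With no scaling factors 64.9% of calls with progestin were higher against 50.5%, and the median of all genes moved from 0.02 to 0.106. Without hormone the share was 65.3% against 48.5%. The medians of the lists of acute phase, antiproliferative, cholesterol, interferon, metallothionein, myeloid, oestrogen and YAP genes changed sign in at least 1 alternative. Replicates of the same number correlated by 0.0186 to 0.0952 in their deviations, so the numbers were not taken as pairs. A fit with the replicate number as a block called 9088 genes with progestin against 8192, and for the difference 1324 higher and 947 lower. Groups of 2 cannot separate technical from biological spread.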

Other observations

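Long noncoding RNAs and zinc finger genes were counted as groups after the values of all genes had been seen, so they are descriptions. Of 1423 genes that RefSeq lists as lncRNA 336 (23.6%) were higher and 62 (4.36%) lower in the siCEBPA libraries with progestin, with a median change of 0.36. Protein-coding genes had 25% higher and 27.2% lower. At 5 to 20 CPM, where both kinds are well counted, 45.0% of 111 lncRNAs were higher and 12.6% lower, beside 30.1% and 22.0% of 2582 protein-coding genes. Above 20 CPM the shares for 45 lncRNAs were 26.7% and 33.3%. Without hormone the median changes of lncRNAs were alike, for instance 0.23 at 5 to 20 CPM against 0.18 with progestin.

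Of 452 tested protein-coding genes whose symbol begins with ZNF, a family of DNA-binding zinc finger proteins, 164 (36.3%) were higher and 63 (13.9%) lower with progestin. Over all tested genes the shares were 22.5% and 22.1%. Protein-coding genes at 1 to 5 CPM gave 31.2% higher and 15.3% lower, and the ZNF genes were not split by level. The largest rise among ZNF genes with at least 5 CPM was ZNF678, given in the report. Those on chromosome 19, where many of this family lie in clusters, gave 88 higher (38.3%) and 22 lower (9.57%) of 230. The share of higher calls in either group moves with the scaling of the libraries, as it does for all genes.

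The metal-handling list showed no common direction, and chromatin and cohesin genes were more often higher than lower (median 0.12). Of 8 metallothionein and zinc transport genes 3 were lower and 2 higher (1 lower without siCEBPA progestin replicate 1): MT1X, a metallothionein, fell by 0.98 on the log2 scale and the zinc exporter SLC30A1 rose by 0.82 ± 0.06. Reads of metallothioneins are uncertain because their copies are alike. Of 24 chromatin and cohesin genes 11 were higher and 5 lower (3 lower without siCEBPA progestin replicate 2), with SMARCE1 of the BAF remodeller at 0.65 ± 0.05 and the insulator protein CTCF at −0.46 ± 0.04. Of 15 antiproliferative genes 3 were higher and 5 lower.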
